A study of Mus musculus with 6 samples.

Results

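Cytochrome P450 genes encode heme monooxygenases, and their transcripts were compared between adult mouse kidneys labelled as having lost Pax2 and Pax8 and control kidneys. Members were all genes whose symbol is Cyp followed by a family number, a subfamily letter or letters and a gene number, read from array clusters with a single symbol, apart from Cyp51, Cyp27b1 and Cyp24a1. This gave 88 genes of 36 subfamilies, out of 22180 genes measured. RefSeq has 4 more genes of this form, Cyp19a1, Cyp2c67, Cyp4a10 and Cyp4a32, with no such cluster, and they were not analysed here. There were 6 Affymetrix Mouse Gene 2.1 ST arrays, each of RNA from part of an adult kidney. In the group labelled knockout, both alleles of Pax2 and of Pax8 were floxed, and a tamoxifen-inducible Cre recombinase was encoded at the Rosa26 locus, which is active in most cell types, so that deletion was not limited to the nephron. Its arrays are replicates 1, 3 and 5. Controls, replicates 2, 4 and 6, were Cre-negative mice, whose Pax2 and Pax8 alleles the labels do not describe. Each group held 2 females and 1 male, and the males are knockout 1 and control 4. Both groups received tamoxifen, which P450 enzymes themselves metabolise, at 50 mg/kg in corn oil, as 3 consecutive daily doses when 8 weeks old and again when 10 weeks old. Tissue was collected 14 days after dosing ended. The labels do not say that each array is a separate animal, so each p-value reflects only how far these samples scatter, which may be technical.

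P450 enzymes insert an oxygen atom into their substrates with electrons from a redox partner. Families 1 to 3 mostly clear drugs and other foreign compounds, and subfamilies 2c and 2j also turn arachidonic acid into epoxides. Family 4 hydroxylates fatty acids, and the families with higher numbers make or break down sterols, bile acids, steroid hormones, vitamin D and retinoic acid. In the kidney most of these enzymes sit in the proximal tubule, and in mice several are known to differ strongly between males and females.

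Values are log2 expression values. Levels of different genes come from different probes and are not compared with each other. A mean over the 6 arrays below 3.64 was called under the background limit, which is the 95th percentile of the means of 1105 olfactory receptor genes on the same arrays. By this limit 41 of the 88 P450 genes were at or above background and 47 were under it. The median value per array ranged from 3.81 to 3.87. Pax8, which was to be deleted, was higher on the arrays labelled knockout (10.11, 10.59 and 10.39) than on the controls (9.09, 9.0 and 8.89), with a log2 difference of 1.36 ± 0.12 (SE) and a limma adjusted p of 0.0037. Pax2 stood at 6.11, 6.49 and 6.16 against 6.09, 5.77 and 6.08 and did not pass (adjusted p = 0.19). The exact two-sided permutation p was 0.1 for Pax8, the smallest that 3 against 3 arrays allow. The cluster values come from probes whose position relative to the deleted exons is not given in the sources used here. Every direction below is therefore that of arrays labelled knockout.

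Promoter windows show the letters before the genes that the results turn on. They run from 250 bases before to 50 bases after the RefSeq start (GRCm38.p6), and 69 of the 88 genes matched at least 1 window, 77 windows in all. Those printed belong to Cyp4v3, the rise with the smallest p, to Cyp3a11, a classical drug-metabolising enzyme, to the falls Cyp2f2 and Cyp2j11, and to Cyp2j13, which had the largest sex difference among these genes. They lie at chr8:45333114-45333413 (minus strand), chr5:145879805-145880104 (minus strand), chr7:27119705-27120004 (plus strand), chr4:96348631-96348930 (minus strand) and chr4:96077491-96077790 (minus strand), and each is written 5′ to 3′ on the gene's strand. Capitals mark GCGTG, the core bound by Ahr with Arnt, and CAAAGTCCA, a letter string bound by HNF4, on either strand. Also searched were GTTAAT, which makes up part of an HNF1 site, and TTATGTAA, the D box of Dbp, Tef and Hlf, which these 5 windows do not hold.

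Cyp4v3: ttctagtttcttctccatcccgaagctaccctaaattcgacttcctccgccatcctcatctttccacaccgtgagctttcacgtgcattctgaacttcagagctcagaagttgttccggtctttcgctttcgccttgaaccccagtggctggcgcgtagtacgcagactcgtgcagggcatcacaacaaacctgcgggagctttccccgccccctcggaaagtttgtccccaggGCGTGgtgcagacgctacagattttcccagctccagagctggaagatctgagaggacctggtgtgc
Cyp3a11: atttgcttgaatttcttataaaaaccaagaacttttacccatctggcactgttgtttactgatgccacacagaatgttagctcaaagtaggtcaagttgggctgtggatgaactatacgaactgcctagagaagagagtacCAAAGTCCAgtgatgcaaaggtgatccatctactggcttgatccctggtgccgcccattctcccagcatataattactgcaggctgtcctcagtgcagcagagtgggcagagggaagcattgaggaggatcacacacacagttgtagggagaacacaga
Cyp2f2: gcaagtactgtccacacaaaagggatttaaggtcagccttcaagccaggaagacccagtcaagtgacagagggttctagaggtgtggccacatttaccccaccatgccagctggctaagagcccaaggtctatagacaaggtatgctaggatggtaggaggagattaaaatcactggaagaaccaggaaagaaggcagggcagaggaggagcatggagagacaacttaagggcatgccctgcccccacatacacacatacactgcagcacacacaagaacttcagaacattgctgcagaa
Cyp2j11: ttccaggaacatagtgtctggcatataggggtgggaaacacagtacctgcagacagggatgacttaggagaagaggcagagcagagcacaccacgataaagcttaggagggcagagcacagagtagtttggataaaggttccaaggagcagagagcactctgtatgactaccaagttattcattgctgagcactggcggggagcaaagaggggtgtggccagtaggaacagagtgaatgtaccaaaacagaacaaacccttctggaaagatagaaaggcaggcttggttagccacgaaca
Cyp2j13: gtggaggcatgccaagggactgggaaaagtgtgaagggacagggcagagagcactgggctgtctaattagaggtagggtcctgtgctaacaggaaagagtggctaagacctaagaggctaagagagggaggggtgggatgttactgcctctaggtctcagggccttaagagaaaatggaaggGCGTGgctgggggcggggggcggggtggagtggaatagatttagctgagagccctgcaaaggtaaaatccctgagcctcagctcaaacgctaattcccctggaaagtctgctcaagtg

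GCGTG begins 16 bases before the start of Cyp4v3, and 68 bases before that of the Cyp2j13 window shown (a second, overlapping window of the gene holds it too). In Cyp3a11, CAAAGTCCA begins 109 bases before the start. Over genes, GCGTG was found in the windows of 16 of 69 members (23.2%) and of 35.2% of all 27025 genes in the table. CAAAGTCCA was found in 8 of 69 members (11.6%) and in 0.555% of all genes. The 8 were Cyp2c40, Cyp2c65, Cyp2c68, Cyp2c69, Cyp2c70, Cyp3a11, Cyp3a16 and Cyp8b1. Of them, 5 lie in the Cyp2c cluster of chromosome 19, and Cyp3a11 and Cyp3a16 lie in a Cyp3a cluster of chromosome 5. The windows within each cluster may not be independent. GTTAAT was found in 11.6% of members and 8.24% of all genes, and TTATGTAA in 0 of 69 members and 1.11% of all genes. The windows of Cyp2f2 and Cyp2j11 held none of the 4 strings, which says only that these letters are not in these windows.

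Between the groups, 12 of the 88 P450 genes passed the test, 9 higher and 3 lower on the arrays labelled knockout. Cyp4v3 and Cyp3a11 rose by over 1 on the log2 scale, and Cyp2f2, Cyp2j11 and Cyp2d12 fell by over 1. Cyp4f39 had a measured difference of 1.08, but its control mean lies under the background limit. Counted from that limit its rise was at least 0.77. The test was limma with sex in the model, with Benjamini-Hochberg adjustment over 22180 genes and a threshold of 0.05. Of all genes 7.2% passed, 4.12% higher and 3.08% lower, against 13.6% of the P450 genes (10.2% higher and 3.41% lower). At or above the background limit, 10 of 41 P450 genes (24.4%) and 10.6% of all such genes passed. Of the 41, 7 were higher (17.1%, against 6.03% of all such genes) and 3 lower (7.32%, against 4.61%). By the measured difference, at least 2-fold and passing were 6 P450 genes, or 6.82%, and 1.47% of all genes. The 6 include Cyp4f39, whose rise counted from the background limit is less than 2-fold. The median log2 difference was -0.0046 over the 88 genes and -0.0062 over all genes, both near 0. The number of P450 genes that passed was 8 without knockout 1 or without control 4, 3 without knockout 3, and 1 without control 2, without control 6 or without knockout 5. The share of all genes that passed dropped too, from 7.2% with all arrays. It was 5.63% without knockout 1 or without control 4, and 2.76% without knockout 3. Without control 2, control 6 or knockout 5 it was 1.55%, 1.61% and 2.39%. When either male is dropped, the sex term takes up the other male. For genotype, both of these fits therefore compare only the 4 females and are the same fit. They are not separate checks, and the counts over 6 fits below include both. Without sex in the model the number of P450 genes that passed was 1, and 471 of all genes (2.12%) then passed. In the fits with 1 call, the call was Cyp4v3. In the brown fat gene Ucp1, controls 2 and 6 were at 7.77 and 7.53 against 3.53 to 5.12 on the other 4 arrays. Knockout 5, without which the number was likewise 1, was at 3.87. Of 6 adipose markers none passed (0 at an unadjusted limma p under 0.05), their mean level was 4.62 to 5.44 on the arrays labelled knockout and 4.43 to 6.38 on the controls, and their part in the result was not tested.

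**Figure D1:**
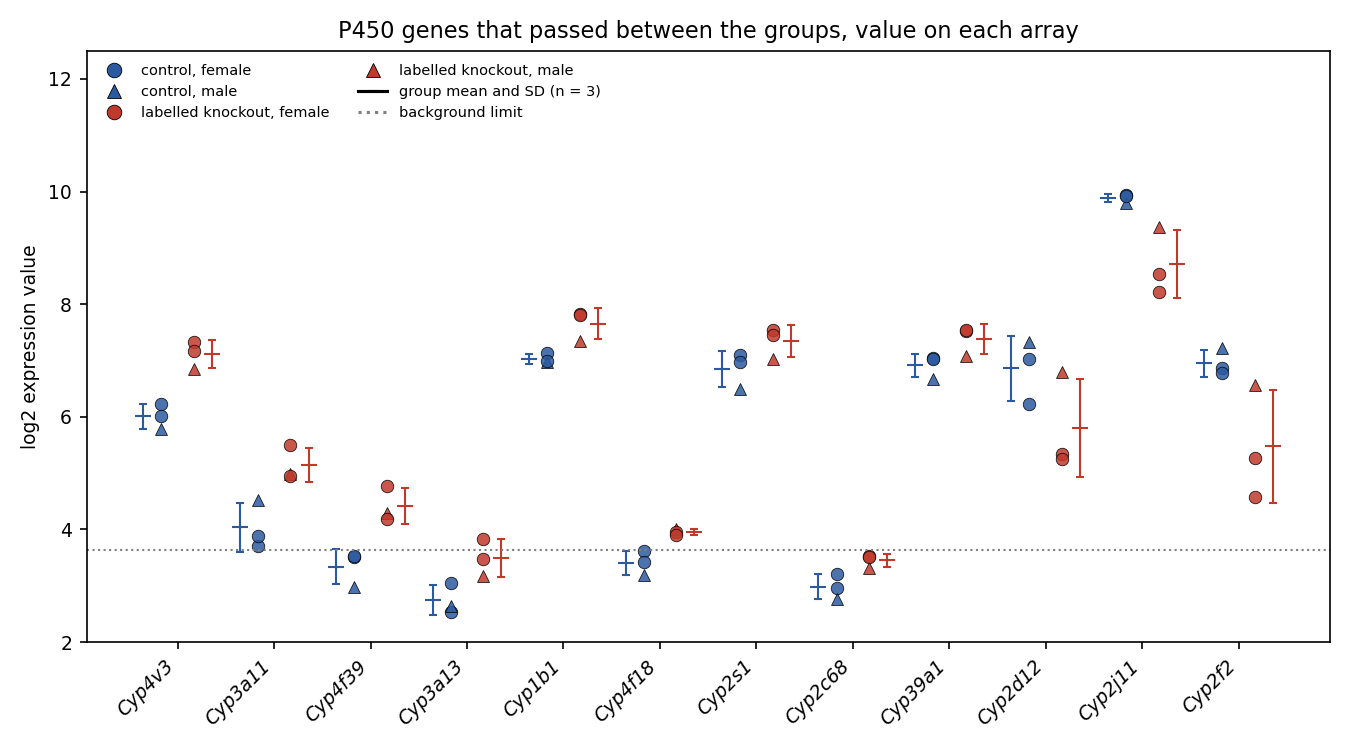
Log2 expression value (vertical axis) of the 12 P450 genes that passed, on each of the 6 arrays, with the mean and SD of each group beside the points (n = 3) and the background limit as a dotted line. Genes are ordered by their difference. Cyp4v3 lies higher on all 3 arrays labelled knockout, and for Cyp2f2, Cyp2j11 and Cyp2d12 the male array labelled knockout lies closest to the controls.

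Cyp4v3, a fatty acid omega-hydroxylase whose human counterpart is mutated in Bietti crystalline corneoretinal dystrophy, gave the clearest rise. Knockouts 1, 3 and 5 gave 6.85, 7.32 and 7.18, against 6.23, 5.78 and 6.01 on controls 2, 4 and 6. All 3 arrays labelled knockout lay above every control, and the difference was 1.11 ± 0.094 (SE; limma adjusted p = 0.0037), a 2.15-fold rise. It was nearly equal in the male pair (1.07) and in the females (1.13). The call held whichever array was dropped, with adjusted p-values between 0.0094 and 0.022, and in all 9 other settings tried (adjusted p up to 0.029). Of these settings, females only is the same genotype fit as dropping either male.

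Other family 4 genes were mixed. Cyp4f39, which hydroxylates very long fatty acids for skin lipids, stood at 4.28, 4.18 and 4.78 on the arrays labelled knockout and at 3.51, 2.98 and 3.53 on the controls, which lie under the background limit. Counted from that limit the rise was at least 1.71-fold (adjusted p = 0.017). Cyp4f18, the leukotriene omega-hydroxylase of neutrophils, was at 4.01, 3.95 and 3.91 against 3.61, 3.19 and 3.42, a rise of at least 1.24-fold counted likewise (adjusted p = 0.037). The groups did not overlap for either gene. Of 9 Cyp4f genes these 2 rose and none fell, and the median difference was 0.0051. Cyp4f13 was at 6.85, 7.01 and 6.82 against 7.25, 7.21 and 7.22 and did not pass (adjusted p = 0.068). Cyp4a31 stood between 10.2 and 10.5 on all 6 arrays, with a difference of -0.073 ± 0.095. Dropping any array ended the call of Cyp4f18 (adjusted p up to 0.13), and dropping any but knockout 3 ended that of Cyp4f39 (up to 0.069).

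Macrophage and myeloid markers moved in the same direction as Cyp4f18. Of 10 such markers 5 rose (Cd68, C1qa, C1qb, Lyz2 and Adgre1) and none fell, and their mean level lay between 5.87 and 6.42 on the arrays labelled knockout and between 5.13 and 5.32 on the controls. S100a8 and S100a9, defining markers of neutrophils, were under the background limit. In bulk tissue, more cells of a type and more RNA per cell cannot be told apart, and the part of these cells in the P450 differences was not tested.

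Among drug-metabolising families, Cyp3a11, a major drug and steroid hydroxylase of mouse liver, was at 4.99, 5.49 and 4.95 on the arrays labelled knockout and at 3.71, 4.52 and 3.88 on the controls. The groups did not overlap, and the rise was 1.11 ± 0.23 (adjusted p = 0.037), or 2.15-fold. It was 0.46 in the male pair and 1.43 in the females. Cyp3a13 (difference 0.75 ± 0.17, adjusted p = 0.049) and Cyp2c68 (0.47 ± 0.093, adjusted p = 0.033) also passed, but both groups' means lie under the background limit and no fold is given. A cluster shared by Cyp2c67 and Cyp2c68, also under the limit, differed by -0.19 ± 0.13. Cyp3a genes are close copies of each other. The other 5 Cyp3a genes were under the limit, with differences between -0.040 and 0.19. Dropping control 2 or 6 or knockout 3 or 5 ended the Cyp3a11 call (adjusted p up to 0.14), and the calls of Cyp3a13 and Cyp2c68 were lost in all 6 (adjusted p up to 0.13 and 0.12). Of 6 liver markers 1 rose, Ttr (1.61 ± 0.23), and none fell. The list's mean level was 5.40 to 5.87 against 5.07 to 5.20, and Alb, its defining gene, differed by 0.093 ± 0.24. The part of these transcripts was not tested. Among P450 genes also known from the liver, Cyp7a1, Cyp1a2 and Cyp2c29 were under the background limit on average. Cyp8b1 (mean 3.73) and Cyp2e1 (mean 10.3) were above it. These genes were not a list fixed in advance.

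Cyp1b1, an Ahr-induced enzyme that acts on estrogens and retinoids outside the liver, rose. It stood at 7.34, 7.82 and 7.80 against 7.13, 6.97 and 6.99 on the controls, with no overlap and a difference of 0.62 ± 0.10 (adjusted p = 0.022). The other genes of family 1, Cyp1a1 and Cyp1a2, which Ahr also induces, differed by -0.0011 ± 0.14 and -0.083 ± 0.098. Cyp2s1, a P450 found in epithelia outside the liver, was at 7.02, 7.55 and 7.46 against 7.09, 6.49 and 6.97. Here the male array labelled knockout lay below control 2, and once sex was in the model the difference was 0.49 ± 0.081 (adjusted p = 0.020). The call of Cyp1b1 was lost in 4 of the 6 fits that drop 1 array (adjusted p up to 0.085) and that of Cyp2s1 in all 6 (up to 0.082).

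In the sterol and bile acid group, 1 of 6 genes rose. This was Cyp39a1, a hydroxylase of oxysterols, at 7.07, 7.53 and 7.54 against 7.05, 6.68 and 7.02. Knockout 1 exceeded the highest control by little, and the difference was 0.46 ± 0.075 (adjusted p = 0.019), lost in 4 of 6 fits that drop 1 array (adjusted p up to 0.080). Cyp27a1, the mitochondrial sterol 27-hydroxylase, differed by 0.26 ± 0.13 and Cyp46a1, the brain cholesterol hydroxylase, by 0.20 ± 0.081, and neither passed.

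The 3 falls were all in family 2. Cyp2f2, best known from club cells of the lung where it activates naphthalene, was at 6.57, 4.58 and 5.27 on knockouts 1, 3 and 5 and at 6.86, 7.23 and 6.78 on controls 2, 4 and 6. The females labelled knockout were low and the male lay just under the controls, and the difference was -1.48 ± 0.28 (adjusted p = 0.030), or 2.79-fold lower. A second cluster of Cyp2f2 with a lower mean (4.20) differed by 0.087, so the clusters disagree. With the clusters averaged the call was lost, and adjusted p-values ran from 0.011 to 0.15 over the settings that keep all arrays or all females.

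Cyp2j11, of the subfamily that epoxidises arachidonic acid, stood at 9.38, 8.22 and 8.53 against 9.94, 9.80 and 9.91. The groups did not overlap, and the controls lay within a narrow range. The difference was -1.17 ± 0.23 (adjusted p = 0.032), or 2.26-fold lower. Cyp2d12 was at 6.80, 5.34 and 5.26 against 7.02, 7.33 and 6.22, so that the male labelled knockout lay above control 6. Its difference was -1.06 ± 0.24 (adjusted p = 0.0497). The calls of these genes were lost with single arrays left out in 3 of 6 fits for Cyp2f2 (adjusted p up to 0.12), 4 of 6 for Cyp2j11 (up to 0.12) and 4 of 6 for Cyp2d12 (up to 0.15). Controls 2 and 6 and knockout 5 were among those arrays for all 3 genes.

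Proximal tubule markers moved in the same direction as these falls. Of 8 early markers 5 fell and none rose, with a mean level of 8.68 to 9.51 on the arrays labelled knockout and 10.3 to 10.5 on the controls. The smallest p were those of Slc5a2 (-2.95 ± 0.26, limma adjusted p = 0.0039) and Slc34a3 (-3.23 ± 0.31, adjusted p = 0.0045). Of 7 late markers 4 fell and none rose, with a mean level of 7.75 to 9.91 against 9.32 to 10.3, so that the groups overlapped across the sexes. Within each sex they did not. The females stood at 7.75 and 8.22 against 9.32 and 9.37, and the male pair at 9.91 against 10.3. This list holds genes that passed for sex, 2 higher and 2 lower in males. As for these 3 P450 genes, the highest array labelled knockout was the male in both lists. In the late list the highest control was also the male. Injured tubule markers rose in 5 of 6 cases, Lcn2 with the smallest p (3.11 ± 0.16), while Havcr1 stood at -0.60 ± 0.36. The part of these markers in the falls was not tested.

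**Figure D2:**
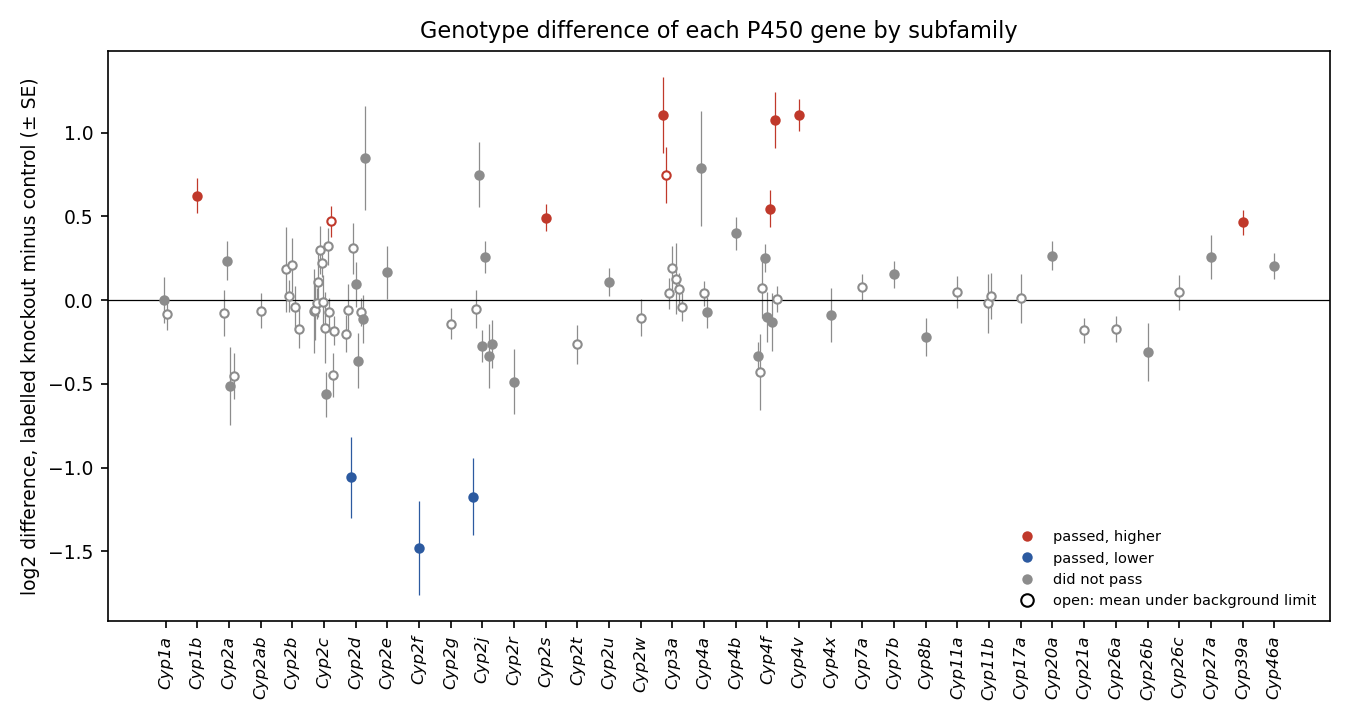
Log2 difference between arrays labelled knockout and controls (vertical axis, ± SE) for each of the 88 P450 genes, by subfamily. Filled points are genes at or above the background limit and open points are under it. Genes that passed lie beside genes near 0 in Cyp2c, Cyp2d, Cyp2j, Cyp3a and Cyp4f.

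The larger subfamilies did not move as blocks. In Cyp2c, 1 of 14 genes passed, Cyp2c68, and 12 of the 14 were under the background limit. Cyp2c23, the arachidonate epoxygenase of the kidney, was at 8.58, 8.90 and 8.80 against 9.15, 7.82 and 9.50 and differed by -0.06 ± 0.25. Cyp2c55 was at 4.37, 4.21 and 3.84 against 4.60, 4.71 and 4.81, a difference of -0.56 ± 0.14 that did not pass (adjusted p = 0.057) although the groups did not overlap. A second, dimmer cluster of Cyp2c55 differed by 0.23. In Cyp2d, 1 of 9 fell and the differences ran from -1.06 (Cyp2d12) to 0.85 ± 0.31 (Cyp2d9, adjusted p = 0.17). These 2 genes are next to each other in the Cyp2d cluster of chromosome 15. None of 4 Cyp2a and 5 Cyp2b genes passed, and all 5 Cyp2b genes were under the limit. Cyp2a4 and Cyp2a5 are near-identical genes. The Cyp2a4 cluster was at 7.41 to 9.49 on the 6 arrays, and the Cyp2a5 cluster at 2.57 to 3.71, with a mean under the limit. The clusters thus did not read the same signal, and whether the Cyp2a4 probes also read Cyp2a5 was not tested.

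Cyp2j genes form a cluster on chromosome 4 in the RefSeq order Cyp2j13, Cyp2j12, Cyp2j11, Cyp2j8, Cyp2j6, Cyp2j9 and Cyp2j5. Of the 7, Cyp2j11 fell and none rose. Its neighbour Cyp2j8 differed by -0.33 ± 0.19, Cyp2j6 by 0.26 ± 0.095, Cyp2j9 by -0.26 ± 0.14 and Cyp2j5 by -0.27 ± 0.095, and none of these passed. Cyp2j12 was under the background limit. Cyp2j13 at one end of the cluster was set by sex, at 10.46 and 10.33 on the males and between 3.15 and 4.39 on the females.

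**Figure D3:**
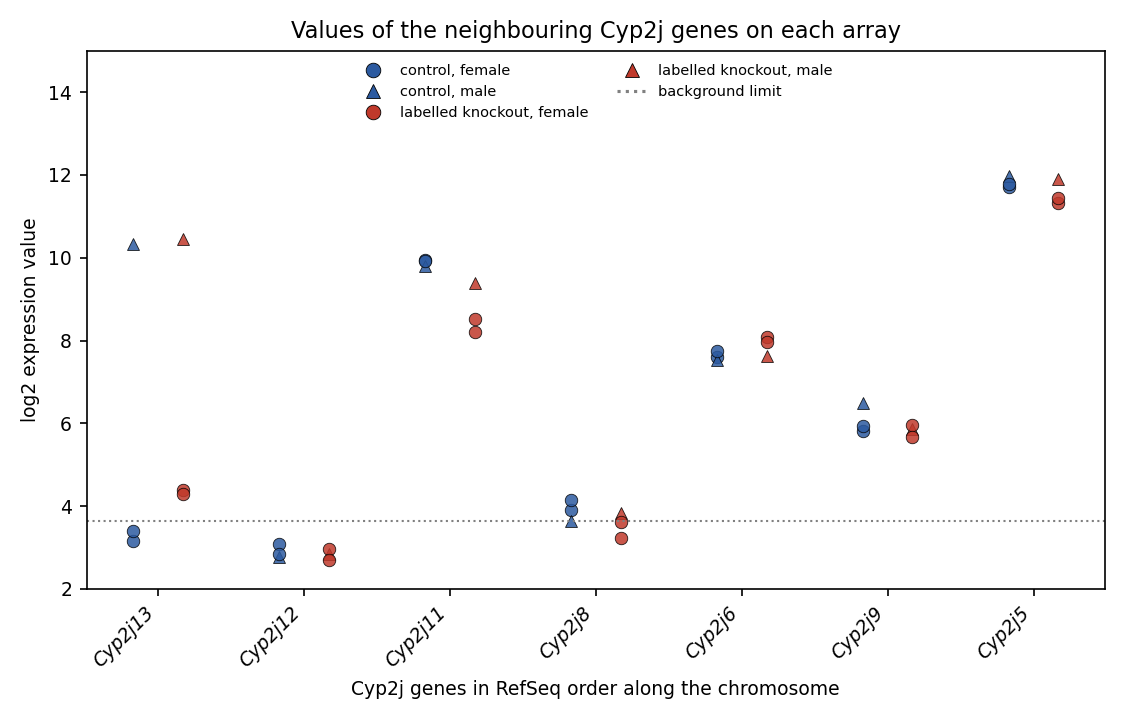
Log2 expression value (vertical axis) of the 7 neighbouring Cyp2j genes on each array, in RefSeq order. Triangles are males and circles females. Cyp2j13 separates males from females, and Cyp2j11 separates the 3 arrays labelled knockout from the 3 controls.

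Steroid hormone synthesis genes were under the background limit in all 5 cases (Cyp11a1, Cyp11b1, Cyp11b2, Cyp17a1 and Cyp21a1), with differences between -0.18 and 0.049, and none passed (1 at an unadjusted limma p under 0.05). The adrenal gland lies against the kidney, and 7 of its cortex markers were measured. Star, Nr5a1, Mc2r and Hsd3b1 were under the limit, and Mrap was above it and did not pass. Scarb1, a lipoprotein receptor also made in other tissues, rose (0.43 ± 0.090, adjusted p = 0.039), and the electron carrier Fdx1 fell. The mean level of the 7 was 4.07 to 4.12 on the arrays labelled knockout and 4.06 to 4.26 on the controls. Of the retinoic acid hydroxylases, Cyp26a1 and Cyp26c1 were under the limit, and Cyp26b1 differed by -0.31 ± 0.17 and did not pass. Cyp2r1, the vitamin D 25-hydroxylase, was at 4.48, 4.96 and 5.16 against 5.07, 5.51 and 5.48, a difference of -0.49 ± 0.19 that did not pass (adjusted p = 0.20). The orphan Cyp20a1 differed by 0.27 ± 0.085 and did not pass. Over all 88 genes, the groups did not overlap for 19, which is 21.6%, against 22.5% of all genes. These were 11 higher (11.7% of all genes) and 8 lower (10.8%), and 12 of the 19 were at or above the background limit, where 28% of all genes did not overlap.

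The largest differences among the P450 genes were those between the sexes. With males set against females in the same limma model, 7 of 88 P450 genes passed (7.95%), 5 higher and 2 lower in males, against 1.87% of all genes (1.25% higher and 0.618% lower). All 7 were among the 41 genes at or above the background limit, where 2.89% of all genes passed. Of the 7, 6 differed at least 2-fold, against 0.712% of all genes. These comparisons rest on 2 male arrays, 1 of each group.

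Cyp2j13 had the largest sex difference of the 88 genes, 6.59 ± 0.21 (adjusted p = 4.2e-05). Its values on females were 4.39 and 4.28 on knockouts 3 and 5, and 3.15 and 3.41 on controls 2 and 6, under the background limit. Counted from that limit, the females labelled knockout were higher than the control females by at least 0.70, and the male pair differed by 0.13. With both sexes the genotype difference was 0.75 ± 0.19 and did not pass (adjusted p = 0.071), and in the females alone it passed (adjusted p = 0.011).

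Cyp7b1, the oxysterol 7-alpha-hydroxylase, was at 10.36 and 10.30 on the male arrays labelled knockout and control. On females it was at 5.53 and 5.47 on the arrays labelled knockout and at 5.34 and 5.25 on the controls. The sex difference was 4.93 ± 0.087 (adjusted p = 3.2e-06), or 30.5-fold, and 4.85 among the arrays labelled knockout and 5.01 among the controls. Genotype differed by 0.15 ± 0.082 and did not pass.

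Cyp4b1, which activates toxic furans and is known to respond to androgen in mouse kidney, was at 11.84 and 11.66 on the males and between 9.40 and 10.02 on the females. Males were 4.16-fold higher (adjusted p = 4.9e-04). Cyp2e1, the ethanol-inducible P450, was at 11.29 and 11.40 on males and between 9.35 and 10.0 on females, 3.05-fold higher in males (adjusted p = 0.0090). Cyp2d9, a testosterone hydroxylase, was at 7.37 and 6.97 on males and at 5.40, 5.29, 4.89 and 3.65 on knockouts 3 and 5 and controls 2 and 6, 5.13-fold higher in males (adjusted p = 0.025). Males and females did not overlap for these 3 genes, and the genotype difference passed for none of them.

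Lower in males were Cyp4a14, a fatty acid hydroxylase controlled by PPAR-alpha, and Cyp2s1. Cyp4a14 was at 8.0 on the male labelled knockout and 6.14 on the control male, against 10.83 and 10.16 on the females labelled knockout and 10.38 and 10.10 on the control females. The sex difference was -3.30 ± 0.36 (adjusted p = 0.012). The male labelled knockout was thus 1.86 above the control male, while the females differed by 0.25, and over both sexes the genotype difference was 0.79 ± 0.34 and did not pass (adjusted p = 0.24). For Cyp2s1 the sex difference was -0.51 ± 0.086 (adjusted p = 0.044). The sex calls of Cyp2j13, Cyp7b1 and Cyp4b1 held whichever array was dropped (adjusted p up to 9.8e-04, 1.8e-04 and 0.0061). That of Cyp2s1 was lost in all 6 fits (up to 0.22), Cyp2d9 in 4 (up to 0.16), Cyp4a14 without control 6 (0.051) and Cyp2e1 without control 4 (0.075).

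**Figure D4:**
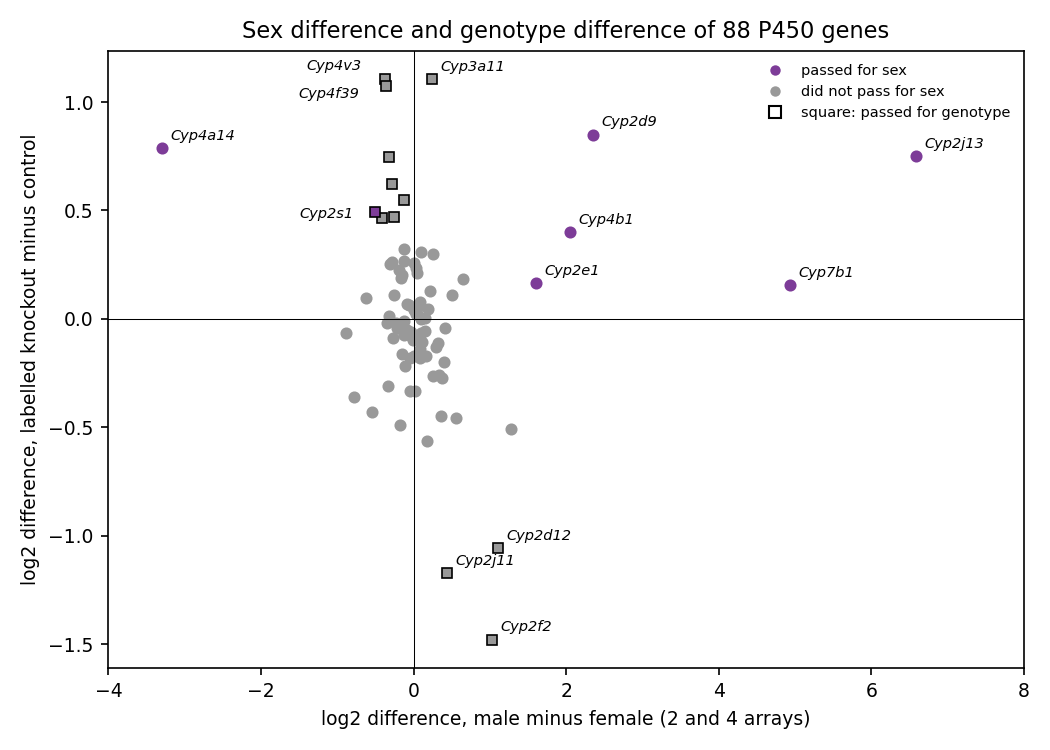
Log2 difference between males and females (horizontal axis) against log2 difference between arrays labelled knockout and controls (vertical axis) for the 88 P450 genes. Of the 7 genes that passed for sex, Cyp2s1 alone also passed for genotype, while Cyp2d9, Cyp4a14 and Cyp2j13 lie away from 0 on both axes.

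The genotype difference itself was set against sex with a genotype by sex term, which rests on 1 male pair. No P450 gene passed (limma adjusted p of at least 0.42), and 13 of 88 had an unadjusted p under 0.05, 14.8% against 6.99% of all genes. Of all 22180 genes 1 passed (0.00451%). The falls of Cyp2f2 and Cyp2j11 were -1.89 and -1.55 in the females and -0.66 and -0.42 in the male pair (unadjusted p = 0.020 and 0.0027, adjusted p = 0.64 and 0.49). For Cyp2c23 the values were -0.48 in the females and 0.76 in the male pair (unadjusted p = 0.0026, adjusted p = 0.49). None of these differences between the sexes passed after adjustment.

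**Figure D5:**
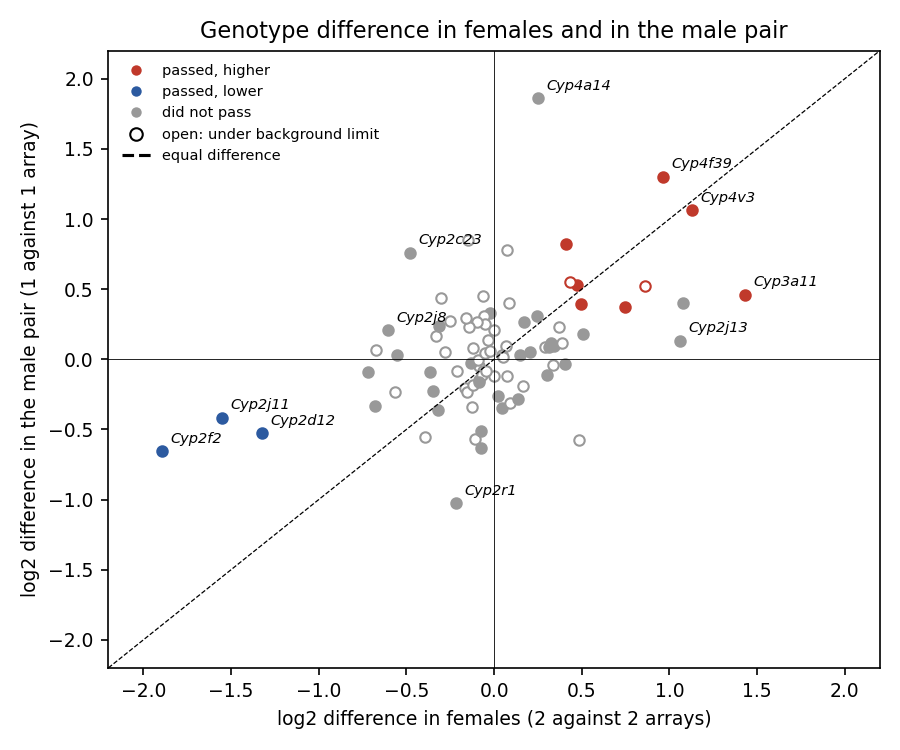
Log2 difference between arrays labelled knockout and controls in the females (horizontal axis, 2 against 2 arrays) and in the male pair (vertical axis, 1 against 1) for the 88 P450 genes, with a dashed line of equal difference. Cyp4v3 lies near the line, and Cyp2f2, Cyp2j11 and Cyp2d12 lie farther from 0 in the females than in the males.

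Genes that serve or control the P450 enzymes were taken as 6 lists of 57 measured genes, of which 7 (12.3%) passed for genotype. Of all genes 7.2% passed, and of all genes at or above the background limit 10.6%. Most of the 57 lie at or above that limit, so their share is near that of such genes. Of 7 redox partners measured, 1 fell, Fdx1, the mitochondrial ferredoxin that feeds electrons to P450 enzymes of mitochondria (-0.39 ± 0.079, adjusted p = 0.036). Dropping any array ended its call (adjusted p up to 0.12). Of 11 genes of heme synthesis and breakdown none passed, with 5 at an unadjusted limma p under 0.05. Alas1, the rate-limiting enzyme of heme synthesis, stood at 0.33 ± 0.098 and the heme oxygenase Hmox1 at 0.79 ± 0.21 (adjusted p = 0.10 and 0.077). None of 4 flavin monooxygenases passed, with 2 at an unadjusted p under 0.05.

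Of 17 receptors and factors that control P450 genes, 1 fell and none rose. This was Nr1i2, the pregnane X receptor that activates Cyp3a11 in the liver, at -0.66 ± 0.12 (adjusted p = 0.029), while Cyp3a11 itself was higher. Hnf4a differed by -0.52 ± 0.14 (adjusted p = 0.086), Ahr by 0.25 ± 0.080 and Ppara by -0.08 ± 0.13, and none of these passed. Among 6 genes of sex-dependent control, the estrogen receptor Esr1 rose (1.24 ± 0.18, adjusted p = 0.015), and the growth hormone receptor Ghr fell (-0.55 ± 0.12, adjusted p = 0.047). The repressor Bcl6 differed by -1.29 ± 0.30 (adjusted p = 0.055). Nr1i2 lost its call in 4 of the 6 fits that drop 1 array (adjusted p up to 0.11), Ghr in 6 (up to 0.16) and Esr1 without control 6 (0.058).

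Of 12 epoxide hydrolases and arachidonate enzymes, which share substrates and products with the 2c, 2j and 4 families, 3 rose and none fell. Of all genes 4.12% rose, and 6.03% of those at or above the background limit, where 10 of the 12 lie. The 3 that rose were the prostaglandin synthases Ptgs2 (1.07 ± 0.19, adjusted p = 0.024) and Ptges (0.43 ± 0.081, adjusted p = 0.028) and the phospholipase Pla2g4a (0.60 ± 0.11, adjusted p = 0.026). The calls were lost with single arrays left out in 5 of 6 fits for Ptgs2 and in all 6 for the others (adjusted p up to 0.11). Ephx2, the soluble hydrolase that opens epoxides made by Cyp2c and Cyp2j enzymes, differed by -0.28 ± 0.10 between the groups (adjusted p = 0.17) and was higher in males.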

How the data were processed

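The authors deposited 1 log2 expression value per transcript cluster and array. Per the submitters' processing notes, RMA, R 3.4.0 and limma were used, without their roles; filters and genome build: not given in the sources used here. Array medians differed little (3.81 to 3.87), and the deposited values were not scaled again. Of 41345 clusters, 23521 had 1 gene symbol in the platform annotation, 1814 several and 16010 none. Through the gene identifier, 23328 matched RefSeq (GRCm38.p6) and no symbol changed. Several-symbol and no-symbol clusters were left out. For 1082 genes with more than 1 cluster (4 of them P450 genes), the cluster with the highest mean was used.

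Differences were fitted with limma 3.58.1 in R 4.3.3 on genotype and sex (3 residual and 6.72 total degrees of freedom), with moderated standard errors and Benjamini-Hochberg adjustment over 22180 genes. The genotype by sex fit has 2 residual degrees of freedom. The fit was tested on simulated data. The number of arrays limits the precision, and no batch is given in the labels.

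Named are all P450 genes that passed for genotype or sex, those among the 10 largest differences, and Pax2 and Pax8. From the fixed partner and marker lists, the genes with the smallest p were to be named, but only some of them are. Any other gene was chosen after its values were seen. Members and lists were chosen with earlier results of these data known. Alternatives were no sex term, females only, single arrays left out, other priors, weights and scalings, a filter on dim genes, averaged clusters and a test of all clusters. Protein identity between members was planned and not analysed here.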

Additional observations from a re-analysis of the deposited data

Results flagged for a closer look

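Array rows outside the comparison above also carried a P450 signal. A pair of clusters annotated to Cyp3a41a, Cyp3a41b, Cyp3a11 and Cyp3a44 together were higher on all 3 arrays labelled knockout than on any control. The first was at 4.97, 4.96 and 5.20 against 3.54, 3.67 and 3.58, a fitted log2 difference of 1.45 ± 0.11 (SE; limma adjusted p = 0.016 over all 41345 clusters). Its control mean of 3.59 lies under the background limit of 3.64, and counted from that limit the difference is at least 1.40. The second was at 4.99, 4.99 and 5.22 against 3.72, 3.85 and 3.78, a difference of 1.29 ± 0.11 (adjusted p = 0.021). Neither differed by sex (-0.00041 ± 0.11 and -0.010 ± 0.11). Which of the 4 genes gave the signal cannot be told apart from these probes. Both clusters carry the same 4 symbols and may share probes, so they may not be separate results. They were flagged because they passed and the groups did not overlap, so the lack of overlap was part of the choice. Over all 41345 clusters, 302 passed (0.73%). Under the same adjustment the cluster of Cyp3a11 alone had an adjusted p of 0.12.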

How the results depend on the processing

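Of the 12 P450 genes that passed for genotype, Cyp4v3 alone did so in every setting tried. Without a sex term 1 passed as higher and 0 as lower (limma, with 11 and 6 at an unadjusted p under 0.05), and with every row of the table tested 1 and 0 passed (16 and 8 unadjusted). In the females alone, which is the same genotype fit as leaving out either male, 5 passed as higher and 3 as lower. With single arrays left out, 1 to 5 were higher and 0 to 3 lower. With dim genes removed 5 were lower. Under quantile normalization and under median centring 8 were higher and 4 lower, and median centring, the larger shift, moved the median of all genes by -0.034. The share of all genes that passed also moved, from 7.2% in the main fit. It was 14.3% with dim genes removed, 6.9% under quantile normalization and 7.05% under median centring. Without a sex term it was 2.12%, in the females alone 5.63%, with single arrays left out 1.55% to 5.63%, and with every row tested 0.73%. For sex, single arrays left out gave 3 to 6 genes higher and 0 to 2 lower in males. Lower in males were 5 with a trended robust prior, 1 with array weights and 0 with every row tested (10 unadjusted). For sex, the share of all genes was not counted in these settings. For the genotype by sex term 0 passed in every setting tried. None of the 12 genes changed direction in any setting, nor did the 7 that passed for sex; genes that did not pass were mostly not followed, and small differences such as those of Cyp4a31 and Cyp1a1 (-0.073 and -0.0011) were 0.02 and 0.14 in the females alone. No paired analysis was possible because the groups share no replicate numbers. The arrays carry no detection calls, so low values are judged against olfactory receptor genes only.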

Other observations

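Some P450 genes of mouse kidney fall outside the naming pattern used above. Cyp4a12a, the male-type arachidonate omega-hydroxylase, was at 7.17 and 7.02 on the males labelled knockout and control, and at 3.45, 2.75, 3.28 and 3.34 on the females (knockouts 3 and 5, controls 2 and 6). All 4 female values lie under the background limit of 3.64, so the sex difference is at least 3.46 on the log2 scale, counted from that limit (limma adjusted p = 0.0064 over all clusters). Its near-identical neighbour Cyp4a12b was at 6.37 and 6.98 on males and between 5.19 and 6.19 on females and did not pass for sex (adjusted p = 0.17). A cluster shared by Cyp4a10 and Cyp4a31 lay between 9.46 and 10.7 on the 6 arrays and differed by -0.051 ± 0.23 with genotype. A cluster shared by Cyp4v3 and its neighbour Klkb1, plasma kallikrein, differed by -0.25 ± 0.18, where the cluster of Cyp4v3 alone rose.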
